A study of Homo sapiens with 6 samples.

Results

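The mitosis and spindle genes are 45 genes that human cells use to enter, carry through and leave cell division. They were taken from the deposited table of reads by their symbols, and each of the 45 was found among its 29845 genes. All 45 also passed the filter on low counts that left 16555 genes for testing. The libraries are polyadenylated RNA of A549, a cell line long grown from a human lung carcinoma. TFAM, a protein known for packaging and transcribing mitochondrial DNA, was introduced on the pIRES-hrGFP-1a plasmid with a FLAG tag at its end (TFAM-OE, 3 libraries), and the control cells received the empty plasmid (3 libraries). Both groups therefore carried the vector with its green fluorescent protein gene and both were transfected with Lipofectamine, transiently, and no selection or sorting of transfected cells is described. The study calls the 3 libraries of a group biological replicates of this 1 cell line, and the p-values below measure only the spread between them.

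Mitosis is driven by cyclin B bound to the kinase CDK1, which CDC25 phosphatases switch on and which the anaphase-promoting complex switches off by marking the cyclin for destruction. Between these events the aurora and polo-like kinases build the spindle, motor proteins and kinetochores attach and align the chromosomes, and a checkpoint holds anaphase back until every chromosome is attached. Most genes for these proteins are transcribed in G2 and mitosis and kept silent in resting cells by the DREAM complex, which binds a short promoter element called the cell cycle genes homology region. Their combined mRNA level is widely used as a measure of how many cells of a tumour or culture are dividing.

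The counts summed to between 26650854 and 37321956 reads per library. TFAM itself was at 76.1, 70.2 and 72.7 CPM (read counts scaled to library size by TMM) in the control libraries and at 71.9, 77.3 and 83.0 in the libraries labelled TFAM-OE. The groups overlapped (log2 fold change 0.08, SE 0.10, edgeR adjusted p = 0.623), so the RNA does not check the label, and the label is used here as given. The paper's own check was of protein, a western blot for the FLAG tag. The 6 epithelial keratin and adhesion markers summed to between 5671.5 and 6321 CPM in the control and between 5299 and 6805 in the libraries labelled TFAM-OE, nearly all of it keratin. EPCAM stayed at or below 1.07 CPM in every library. Markers of other cells were low, with summed CPM of at most 3.70 for the 4 immune markers found, 0.267 for the 3 endothelial markers and 5.27 for the 4 fibroblast markers found. The immune sum lay between 3.04 and 3.70 CPM in the control and between 1.07 and 1.82 in TFAM-OE, nearly all of it CD68, a lysosomal protein of macrophages, while PTPRC was at or near 0 in every library. CD68 fell (log2 fold change -1.21, edgeR adjusted p = 0.0152), and its part in the results below was not tested. The T cell marker CD3E and the collagen gene COL1A2 were not among the listed genes and were not analysed here.

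Many of these promoters carry the letters of that element. RefSeq promoters of GRCh38.p14, running from 250 bases before the gene start to 50 bases after it, were matched for 37 of the 45 genes by symbol. The letters TTTGAA or TTCGAA are the usual forms of the homology region. They stood on either strand in a promoter of 30 of the 37 genes (81.1%), beside 19.5% of 27305 genes. A gene was counted if any of its promoters held them. Counted singly, 16.4% of 35116 promoters held them. A CCAAT box, read as CCAAT or as ATTGG on the other strand, stood in 31 of the 37 (83.8%, beside 39.7% of genes). Both were present in 26 of the 37 (70.3%, beside 7.85% of genes). On the strand of the gene, TTTGAA began between 10 and 40 bases before the start in 14 of the 37 genes (37.8%, beside 1.14% of genes). These bounds were chosen after the positions had been seen. A match of letters is a description of the sequence and does not show that the site is bound in A549 cells.

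The promoter of CCNB2, the cyclin gene with the largest difference described below, shows the arrangement in full, with both elements in capitals and the gene start following the last base. It lies on the plus strand at chr15:59105016-59105145, and GENCODE version 44 already places its last bases in the gene (chr15:59105126-59125045).
CCNB2: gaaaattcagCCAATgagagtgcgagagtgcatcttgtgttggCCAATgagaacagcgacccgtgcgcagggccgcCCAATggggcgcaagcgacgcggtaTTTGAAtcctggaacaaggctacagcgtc
Its 3 CCAAT boxes begin 120, 87 and 54 bases before the start, which is 33 bases apart both times, and TTTGAA follows 25 bases after the last, at 29 bases before the start.

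Windows of 30 bases around TTTGAA, the motif in capitals, are shown next for genes the results return to. They are 3 genes whose mRNA rose, 1 just short of the threshold and 3 with wide spread, so that the element can be compared. Distances are to the RefSeq start. GENCODE places every window but that of MKI67 within the gene, and that of CENPA the deepest. It starts CENPA at 26764289 and PLK1 at 23677656, and PRC1, on the minus strand, at 90995629. Which start is used in A549 cells was not tested.
CENPA (chr2:26786026-26786055, plus strand, motif from 18 bases before the start): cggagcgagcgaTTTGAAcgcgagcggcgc
CDCA8 (chr1:37692481-37692510, plus strand, 23 bases before): gtgactgtggagTTTGAAttgggtggcggt
PRC1 (chr15:90994538-90994567, minus strand, 20 bases before): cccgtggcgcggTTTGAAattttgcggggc
PLK1 (chr16:23678848-23678877, plus strand, 29 bases before): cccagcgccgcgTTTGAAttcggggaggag
MKI67 (chr10:128126435-128126464, minus strand, 29 bases before): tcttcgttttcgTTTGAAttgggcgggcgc
ANLN (chr7:36389830-36389859, plus strand, 20 bases before): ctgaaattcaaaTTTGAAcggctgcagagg
BUB1B (chr15:40161034-40161063, plus strand, 23 bases before): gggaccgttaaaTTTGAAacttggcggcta
Either form of the element stood in the promoters of 7 of the 10 matched genes that rose and of 23 of the 27 matched genes that did not pass the test.

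Part of the mitosis and spindle mRNAs were higher in the libraries labelled TFAM-OE, each by less than 2-fold. Of the 45 genes, 14 rose (31.1%), beside 3.48% of all genes tested, and 0 fell, beside 4.81% of all genes tested, at an adjusted p below 0.05 in edgeR's quasi-likelihood test with Benjamini-Hochberg adjustment over 16555 genes. At an unadjusted p below 0.05 in the same test, 25 were higher and 0 lower, beside 12.2% and 13.2% of all genes. DESeq2 called 18 higher and 0 lower, beside 5.64% and 6.68% of all genes. No member passed the study's rule of a 2-fold change, beside 2.51% of all genes, and the largest fold was 1.54. The log2 fold changes ran from -0.07 to 0.62 with a median of 0.32 (1.25-fold), beside a median of -0.01 over all genes tested, and 43 of the 45 were above 0, beside 48.9% of all genes. In 28 of the 45 (62.2%) every library labelled TFAM-OE lay above every control library, beside 15.8% of all genes tested, and in 0 did they all lie below. These 28 were the 14 that rose and 14 that did not pass the test.

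In bulk RNA a larger share of dividing cells and more RNA per dividing cell cannot be told apart. The count of 14 was not stable when single libraries were left out. Without control replicate 1 it was 1, without control replicate 2 it was 0 and without TFAM-OE replicate 2 it was 1. The median log2 fold change then stayed at 0.30, 0.32 and 0.32. The share of all genes that rose dropped as well in these 3 fits, to 0.535%, 0.391% and 0.526%. The count was 15 without control replicate 3, 18 without TFAM-OE replicate 1 and 20 without TFAM-OE replicate 3. Beside these counts, 2.85%, 4.44% and 8.43% of all genes rose. The plot by role sets each gene's difference beside its standard error.

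**Figure D1:**
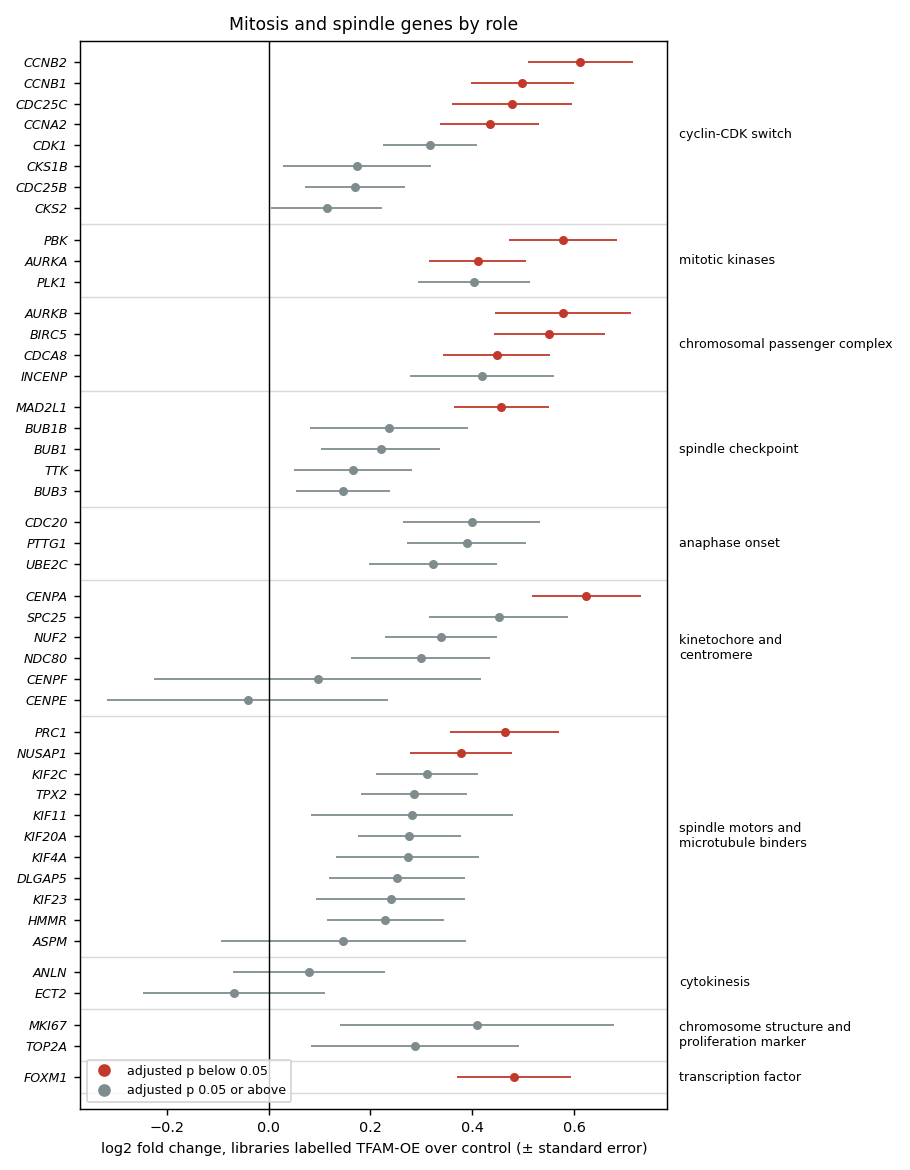
Log2 fold change of the 45 mitosis and spindle genes, libraries labelled TFAM-OE (n = 3) over control (n = 3), grouped by role, with bars of 1 standard error and red for an adjusted p below 0.05 in edgeR's quasi-likelihood test. The 14 red genes lie between 0.38 and 0.62, and only CENPE and ECT2 lie below 0.

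In the switch into mitosis 4 of 8 genes rose, the largest count of any role though not the largest share. The other 4 did not pass the test. CCNB2, a cyclin B of CDK1, was at 47.8, 54.8 and 58.6 CPM in the control and at 83.0, 79.2 and 84.2 CPM in the libraries labelled TFAM-OE. The lowest TFAM-OE library thus lay well above the highest control library (log2 fold change 0.61, SE 0.10, edgeR adjusted p = 0.0082). CCNB1 (chr5:69167135-69178245), the main mitotic cyclin, was at 164, 179 and 201 CPM in the control and at 267, 253 and 249.5 in TFAM-OE. It rose with no overlap (0.50, SE 0.10, edgeR adjusted p = 0.018). CCNA2, the cyclin of S phase and G2, rose from 48.3 ± 3.80 to 65.3 ± 1.43 CPM (SD, n = 3, edgeR adjusted p = 0.0265). CDC25C, a phosphatase that activates CDK1, rose from 13.1 ± 1.10 to 18.2 ± 0.471 CPM (SD, n = 3, edgeR adjusted p = 0.0378).

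CDK1 (chr10:60778331-60794852), the kinase these proteins act on, was at 66.9, 63.4 and 71.9 CPM in the control and at 83.5, 83.7 and 84.7 in TFAM-OE. Its libraries did not overlap, the 3 TFAM-OE values were nearly equal, and it did not pass the test (0.32, SE 0.09, edgeR adjusted p = 0.0623). The phosphatase CDC25B also showed no overlap, with a log2 fold change of 0.17 (edgeR adjusted p = 0.313). The small CDK-binding proteins had the highest levels per length of the 45, with mean FPKM over the 6 libraries of 204 for CKS2 and 119 for CKS1B. CKS2 was at 137, 135 and 154 CPM in the control and at 169, 156 and 136 in TFAM-OE, so the groups overlapped (0.11, SE 0.11, edgeR adjusted p = 0.551). CKS1B overlapped likewise (0.17, adjusted p = 0.487).

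Of the 3 kinases AURKA, PBK and PLK1, which are grouped here apart from those of the passenger complex and the checkpoint, AURKA and PBK rose. AURKA (chr20:56369389-56392337), which matures the centrosomes, was at 92.9, 103 and 110.2 CPM in the control and at 136, 134 and 137 in TFAM-OE (log2 fold change 0.41, SE 0.10, edgeR adjusted p = 0.0297). PBK, a kinase of dividing cells, was at 50.6, 47.2 and 55.3 CPM in the control and at 72.8, 72.4 and 83.5 in TFAM-OE (0.58, SE 0.11, edgeR adjusted p = 0.0118). Neither gene had overlapping groups. PLK1 (chr16, window above), the kinase of spindle assembly and mitotic entry, was at 132, 156 and 164 CPM in the control and at 214, 199 and 185 in TFAM-OE. It lay at the threshold without passing it (0.40, SE 0.11, edgeR adjusted p = 0.0503).

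The chromosomal passenger complex, which corrects faulty chromosome attachments and later guides cytokinesis, had 3 of its 4 genes higher and a median log2 fold change of 0.50. AURKB (chr17:8204733-8210600), its kinase, was at 49.97, 59.7 and 71.2 CPM in the control and at 95.6, 92.2 and 82.3 in TFAM-OE (0.58, SE 0.13, edgeR adjusted p = 0.029). BIRC5 (chr17:78214186-78225636), which encodes survivin, was at 149.7, 164 and 189 CPM in the control and at 262, 244 and 230.2 in TFAM-OE (0.55, SE 0.11, edgeR adjusted p = 0.0165). CDCA8, which encodes borealin, rose from 37.4 ± 3.71 to 51.0 ± 0.684 CPM (SD, n = 3, edgeR adjusted p = 0.0308). INCENP, the scaffold, was at 45.7, 51.6 and 50.3 CPM in the control and at 53.4, 64.4 and 79.6 in TFAM-OE, again without overlap but with wide spread (0.42, SE 0.14, edgeR adjusted p = 0.0966).

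**Figure D2:**
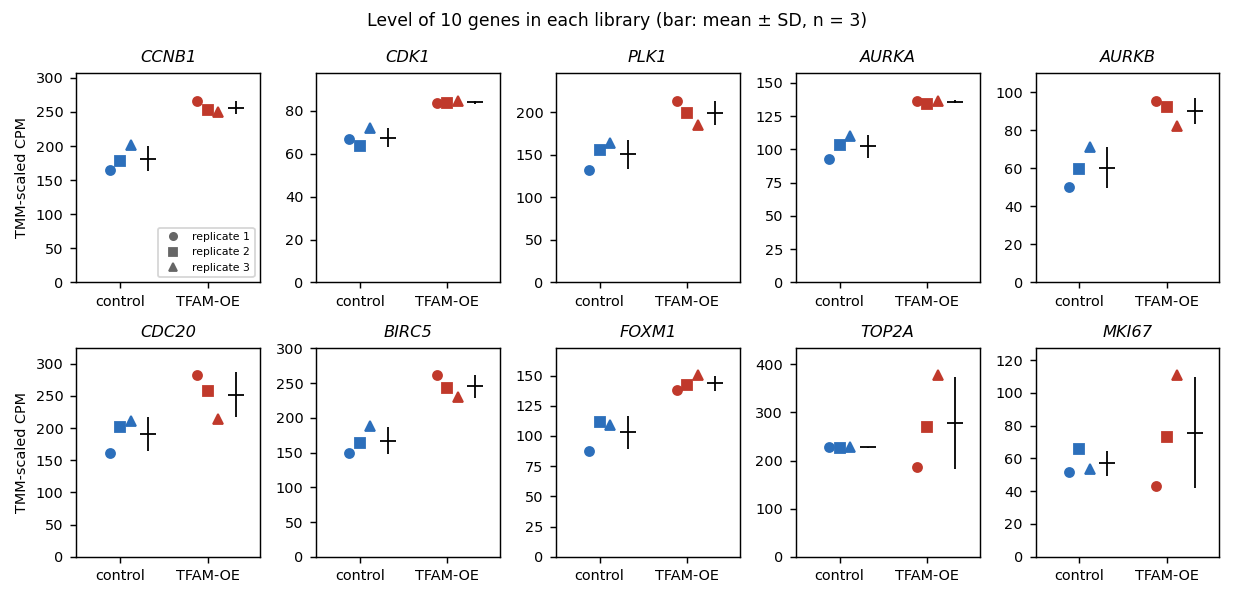
TMM-scaled CPM of 10 widely used mitosis genes in each library, with blue for control, red for the libraries labelled TFAM-OE, marker shape for the replicate number and bars for the mean ± SD of 3 libraries. TFAM-OE lies above control without overlap in every panel except TOP2A and MKI67, where it spans from below to above the control values (43.4 to 111 CPM for MKI67).

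The spindle checkpoint had 1 gene of 5 higher. MAD2L1, the protein that sequesters CDC20, was at 47.7, 48.1 and 52.3 CPM in the control and at 67.7, 65.7 and 70.0 in TFAM-OE (log2 fold change 0.46, SE 0.09, edgeR adjusted p = 0.0183). The checkpoint kinases BUB1 and TTK and the adaptors BUB1B and BUB3 had log2 fold changes of 0.22, 0.17, 0.24 and 0.15. None of the 4 passed the test, with the smallest edgeR adjusted p at 0.269 for BUB1.

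The 3 genes of anaphase onset had a median log2 fold change of 0.39, and none passed the test although none had overlapping groups. CDC20 (chr1:43358981-43363203), which the checkpoint restrains and which activates the anaphase-promoting complex, was at 161, 201 and 210.4 CPM in the control and at 283, 258 and 214 in TFAM-OE. The gap between TFAM-OE replicate 3 and control replicate 3 was small (0.40, SE 0.13, edgeR adjusted p = 0.0963). PTTG1, the securin that keeps sister chromatids together, had a log2 fold change of 0.39 (edgeR adjusted p = 0.0703). Near-identical copies of PTTG1 exist elsewhere in the genome, so its count may miss or share reads. UBE2C, a ubiquitin-conjugating enzyme of the complex, had 0.32 (edgeR adjusted p = 0.142).

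At the kinetochore and centromere 1 gene of 6 rose. CENPA (chr2:26764289-26801067), the histone that marks centromeres, had the largest log2 fold change of the 45. It was at 24.9, 26.6 and 29.6 CPM in the control and at 40.5, 41.9 and 42.7 in TFAM-OE (0.62, SE 0.11, edgeR adjusted p = 0.0086). Its annotated exons overlap those of SLC35F6 on the same strand, a gene with 341% of its reads, whose own log2 fold change was 0.13 (edgeR adjusted p = 0.377). The outer kinetochore subunits SPC25, NUF2 and NDC80 had log2 fold changes of 0.45, 0.34 and 0.30, each with no overlap and none past the test (edgeR adjusted p = 0.0703, 0.0867 and 0.203).

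Both very large kinetochore proteins had overlapping groups. CENPF was at 31.6, 34.0 and 24.6 CPM in the control and at 15.9, 30.7 and 49.8 in TFAM-OE (0.10, SE 0.32, edgeR adjusted p = 0.883). CENPE, a motor that carries chromosomes to the spindle centre, was at 7.24, 7.62 and 5.10 CPM in the control and at 3.67, 7.57 and 8.10 in TFAM-OE (-0.04, SE 0.28, edgeR adjusted p = 0.944). In both genes TFAM-OE replicate 1 was the lowest of the 6 libraries and replicate 3 the highest.

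Spindle motors and microtubule binders rose in 2 of 11 genes, with a median log2 fold change of 0.28 and all 11 above 0. PRC1, which bundles the microtubules of the central spindle, was at 103, 109.8 and 121 CPM in the control and at 142, 147 and 171 in TFAM-OE (0.46, SE 0.11, edgeR adjusted p = 0.0296). NUSAP1, a spindle-stabilising protein, rose from 48.1 ± 3.98 to 62.5 ± 1.98 CPM (SD, n = 3, edgeR adjusted p = 0.0464). Its exons overlap those of OIP5-AS1 on the same strand, whose reads came to 82.2% of its own and whose log2 fold change was 0.30 (edgeR adjusted p = 0.202). The kinesins KIF2C, KIF11, KIF20A, KIF4A and KIF23 had log2 fold changes of 0.31, 0.28, 0.28, 0.27 and 0.24, and the spindle assembly factors TPX2, DLGAP5, HMMR and ASPM had 0.29, 0.25, 0.23 and 0.15. None of these 9 passed the test, and the groups overlapped in 6 of them, the exceptions being KIF2C, TPX2 and KIF20A.

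The group means of the 2 cytokinesis genes lay close together. ANLN, an actin-binding scaffold of the cleavage furrow, was at 102, 103 and 104 CPM in the control and at 82.7, 112 and 132 in TFAM-OE (0.08, SE 0.15, edgeR adjusted p = 0.78). ECT2, an exchange factor of the cleavage furrow, was at 103, 106 and 101 CPM in the control and at 69.6, 98.9 and 127 in TFAM-OE (-0.07, SE 0.18, edgeR adjusted p = 0.849). The control libraries were nearly equal in both genes while the TFAM-OE libraries straddled them.

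TOP2A, the topoisomerase that untangles chromosomes, showed the same shape, with 228, 227 and 228 CPM in the control and 186, 270.1 and 378 in TFAM-OE (0.29, SE 0.20, edgeR adjusted p = 0.408). MKI67, which encodes the proliferation antigen Ki-67 used in pathology, was at 51.8, 65.9 and 53.6 CPM in the control and at 43.4, 73.1 and 111 in TFAM-OE (0.41, SE 0.27, edgeR adjusted p = 0.372). Its log2 fold change was like that of AURKA, with a larger standard error. FOXM1 (chr12, minus strand), the transcription factor that drives many of the genes above in G2, was at 87.6, 112 and 109 CPM in the control and at 138, 142 and 151 in TFAM-OE (0.48, SE 0.11, edgeR adjusted p = 0.0296), with no overlap.

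Exons of 15 of the 45 genes overlap exons of another counted gene, and whether strand was used in counting is not given in the sources used here. Besides CENPA and NUSAP1, this concerns 2 genes that rose and whose partner holds many reads. CDC25C overlaps FAM53C on the opposite strand, with 466% of its reads and a log2 fold change of -0.18 (edgeR adjusted p = 0.360). CCNA2 overlaps EXOSC9 on the opposite strand, with 50.9% of its reads and a log2 fold change of 0.02 (edgeR adjusted p = 0.938). None of the 4 partners passed the test.

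The spread among the TFAM-OE libraries differed widely between the 45 genes. The coefficient of variation within TFAM-OE was under 5% in 14 genes, down to 0.787% for CDK1 and 0.891% for AURKA, and over 20% in 11, up to 52.9% for CENPF and 44.7% for MKI67. It reached at most 10.1% in the genes that rose, but the test itself depends on this spread, so this bound is no separate result. Medians were 8.81% in TFAM-OE and 8.07% in the control, beside 13.5% and 10.04% over all genes tested.

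The canonical transcripts of the 45 genes in GENCODE version 44 run from 616 bases (CKS2) to 12716 bases (MKI67), with a median of 2881. Across the 45 genes, Spearman's correlation between this length and the log2 ratio of TFAM-OE replicate 3 to replicate 1 was 0.79, beside 0.49 across 16333 tested genes. Between length and the ratio of control replicate 3 to replicate 1 it was -0.72, beside -0.27 across 16342 genes. Each coefficient describes genes measured in the same 2 libraries, which are not independent of each other. The 4 longest transcripts, MKI67, ASPM, CENPF and CENPE, had log2 ratios of 1.36, 1.07, 1.65 and 1.14 between TFAM-OE replicates 3 and 1, and the short CDC20 and CKS1B had -0.40 and -0.39. Not every long transcript had a high ratio, with -0.19 for BUB3 (7703 bases) and 0.05 for MAD2L1 (5227 bases).

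Length also moved with the calls. Of the 21 genes with transcripts over 3000 bases, 3 rose, 8 had no overlap and the median log2 fold change was 0.24. Of the 24 shorter genes, 11 rose, 20 had no overlap and the median was 0.40. Over all genes tested the shares that rose were 2.97% of the long and 3.98% of the short genes. The share without overlap, 15.8% over all genes tested, was not split by length. Spearman's correlation between length and the log2 fold change was -0.47 across the 45 genes and -0.13 across all genes. TFAM-OE replicate 3 was the highest of its group in 31 of the 45 genes, beside 39.2% of all genes tested. Replicate 1 was the highest in 11, beside 43.5%. In 25 of the 45 genes replicate 3 was the highest and replicate 1 the lowest, an order that was not counted over all genes. What made long and short transcripts differ between libraries was not tested. With each library's dependence on length entered as an offset in the edgeR fit, 19 of the 45 genes rose, among them all 14, 0 fell, and the median log2 fold change was 0.31. In that fit 7.07% of all genes rose and 7.7% fell, so the count went up over the whole table too.

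Other genes of the same pathways were followed in 7 lists that hold none of the 45. The lists hold 137 genes, all tested, of which 27 were higher and 3 lower in edgeR's quasi-likelihood test, beside 3.48% and 4.81% of all genes tested. No test was made of a difference between lists. The higher count was 2 without control replicate 1, and 1 without control replicate 2 or TFAM-OE replicate 2.

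Among 28 further kinetochore genes, 4 rose and 0 fell, with a median log2 fold change of 0.26. SPC24, the partner of SPC25, went from 12.7 ± 3.01 to 21.2 ± 1.65 CPM (SD, n = 3, edgeR adjusted p = 0.0295), and CENPM and CENPU of the inner kinetochore had log2 fold changes of 0.59 and 0.51 (edgeR adjusted p = 0.0318 and 0.0335). Among 28 further spindle and cytokinesis genes, 6 rose and 0 fell, with a median of 0.26. CDCA3, a trigger of mitotic entry, led with 0.74 (edgeR adjusted p = 0.0126), followed by the minus-end motor KIFC1 with 0.53 (0.0167 in the same test) and GTSE1 with 0.45 (0.0462 in the same test).

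The subunits and activators of the anaphase-promoting complex rose in 3 of 17 genes, with a median of 0.14. These were the subunits ANAPC15 (log2 fold change 0.73) and CDC16 (0.46), and FZR1 (0.36), the activator of late mitosis and G1. Cohesin and condensin genes rose in 2 of 20, with a median of 0.14. They were CDCA5 (0.48), which encodes the cohesion protein sororin, and the condensin subunit NCAPD2 (0.39). Of the 20 genes 13 lay above 0, among them the cohesin genes SMC1A (0.20) and RAD21 (0.004). Several cohesin genes that did not pass the test lay below 0. The log2 fold changes were -0.67 for the cohesin release factor WAPL, -0.47 for STAG1 and -0.31 for SMC3 (edgeR adjusted p = 0.0668, 0.152 and 0.438). In each of these genes below 0, TFAM-OE replicate 1 was the lowest of the 6 libraries. Neither list had a gene that fell.

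The list of G2 control genes, all brakes on the cell cycle but for the phosphatase CDC25A, was the only list of the 7 with genes that fell, 3 of 10, and 1 rose. GADD45A, a stress-induced inhibitor of CDK1, fell from 114 ± 34.2 CPM in the control to 47.2 ± 6.44 in TFAM-OE (SD, n = 3, log2 fold change -1.27, edgeR adjusted p = 0.0055). CDKN1A, which encodes the CDK inhibitor p21, fell from 462 ± 42.0 to 297 ± 58.8 CPM (SD, n = 3, -0.64, edgeR adjusted p = 0.0272). GADD45B had -0.75 (edgeR adjusted p = 0.0494). PKMYT1, the kinase that holds CDK1 inactive, rose from 40.3 ± 7.48 to 74.6 ± 5.23 CPM (SD, n = 3, 0.89, edgeR adjusted p = 0.0058). Of the 12 regulators of the DREAM and MuvB complexes, MYBL2, the activator that binds MuvB in S phase, rose (0.56, edgeR adjusted p = 0.0326), and the other 11 did not pass the test.

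Genes of the G1/S step and DNA replication rose in 10 of 22, with a median of 0.41. All 22 had log2 fold changes above 0, beside 48.9% of all genes tested. In 21 of them every TFAM-OE library lay above every control library, beside 15.8% of all genes tested. E2F1, the factor that switches on S-phase genes, went from 46.5 ± 7.53 to 75.8 ± 5.55 CPM (SD, n = 3, 0.71, edgeR adjusted p = 0.0120), and the replication gene GINS2 had 0.57 (edgeR adjusted p = 0.0361).

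**Figure D3:**
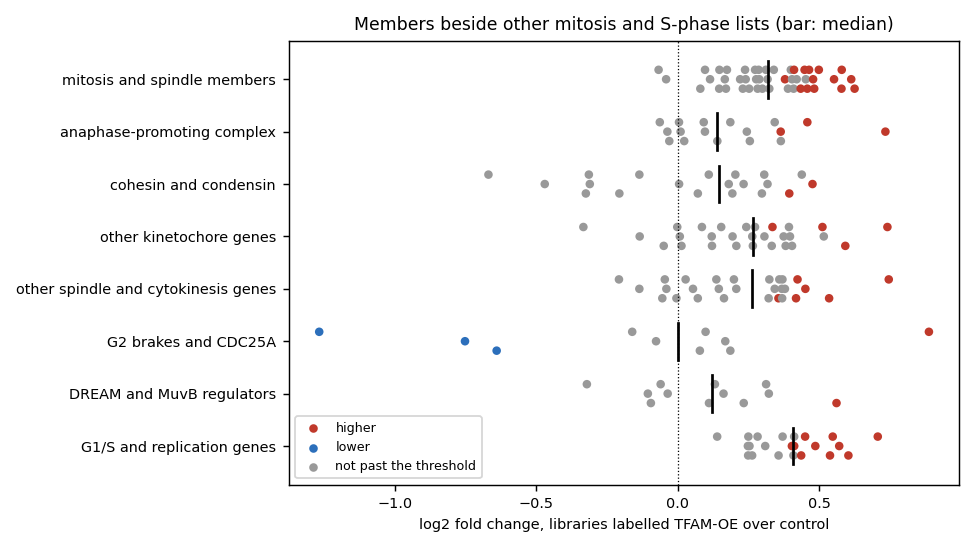
Log2 fold changes of the 45 mitosis and spindle genes and of the 7 other lists, 1 point a gene, with red for higher, blue for lower, grey for genes that did not pass an adjusted p of 0.05, and a black bar for the median. The medians are 0.32 for the members and 0.41 for the G1/S and replication genes, and the 3 blue points are GADD45A, GADD45B and CDKN1A.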

How the data were processed

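Polyadenylated RNA of A549 cells was sequenced in 6 libraries, which were grouped by their labels. Per the paper's methods, the authors trimmed the reads and aligned them to GRCh38 with TopHat2. For each gene they deposited a raw count of uniquely mapped reads and an FPKM value. No source used here names the counting program, the annotation or the strand setting. The counts sum to between 26650854 and 37321956 reads, and this depth limits the counting error only. The number of unused value columns was 0.

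From the counts, genes kept by filterByExpr were scaled by TMM and tested with edgeR (4.0.16, R 4.3.3), quasi-likelihood, two-sided, at an adjusted p of 0.05, and means ± SD are of TMM-scaled CPM. The fit was tested on simulated data. Levels compared between genes are deposited FPKM. Transcript lengths, positions and exon overlaps come from GENCODE version 44, which matched 97.2% of the genes by identifier, and promoters from RefSeq tables of GRCh38.p14, searched in Python (3.11.15). RefSeq promoters of 8 members were not matched.

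The members and lists were chosen with earlier results of these data known. Per-library values are given for 10 widely used mitosis genes and for the 5 members with the highest and the 5 with the lowest log2 fold change, and further genes are named where they illustrate a role. From each other list up to 3 genes past the threshold in each direction are named. Some genes that this rule names are left out. Alternatives were limma-voom and limma-trend (3.58.1), the latter on log2(FPKM + 0.1) and log2(FPKM + 1), DESeq2 (1.42.0), the exact test of edgeR, other scalings, no filter, each library left out, the replicate number as a block and, added after seeing the data, a transcript length offset. Figures were drawn with matplotlib (3.10.9).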

Additional observations from a re-analysis of the deposited data

How the results depend on the processing

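No member fell and no member passed a 2-fold change under any alternative run, and their median log2 fold change stayed between 0.27 and 0.39. The count of 14 that rose was between 12 and 20 with DESeq2, limma-voom, edgeR's exact test, no filter, other scalings or the transcript length offset. In these fits between 2.98% and 7.07% of all genes tested rose. The count was 4 with limma-trend on FPKM with 0.1 or 1 added, beside 0.54% and 0.499% of all genes. With each library left out it was between 0 and 20, beside between 0.391% and 8.43% of all genes. For the 7 other lists, 27 higher and 3 lower became 6 and 0 with either FPKM setting, 44 and 5 with the length offset, 36 and 5 with no filter, and between 1 and 45 higher and between 1 and 8 lower with each library left out. The causes were not tested. Leaving out a library also leaves fewer samples, and dropping the filter raised the genes tested from 16555 to 29845. The fit with no filter gave a count of 20. An earlier fit of these data without a filter gave more false calls on simulated counts than its threshold allows.

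With the replicate number as a block, 0 of the 45 genes and 1 of the 137 list genes rose, beside 0.447% of all genes. No source used here says whether same-numbered libraries were handled together. Their deviations correlated at -0.34, 0.06 and -0.41, and not every library correlated best with its own number. This check cannot decide on a pairing, because the deviations also hold each group's trend with transcript length, and these trends ran in opposite directions. Signs turned in 5 genes, each with a main log2 fold change between -0.07 and 0.15. CENPF was at -0.037 with limma-voom and with the block, and at -0.055 and -0.0095 with FPKM and 0.1 or 1 added, and CENPE was at 0.054 with the length offset. With each library left out, CENPF ran from -0.36 to 0.42, CENPE from -0.22 to 0.24, ECT2 from -0.28 to 0.13, ASPM from -0.097 to 0.39 and ANLN from -0.077 to 0.24. The lowest member, CENPE, was at no more than 8.10 CPM, and the 3 libraries a group set the precision of every difference.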
